A study of Mus musculus with 30 samples.

Results

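Arginine and polyamine metabolism was represented by 7 genes chosen by name: Arg2, Ass1, Odc1, Srm, Sms, Sat1 and Smox. Each gene was read from a probe set of the array annotated to that gene alone, and where a gene had several, from the one whose mean across the 30 arrays was highest. The genes were picked with earlier results of these data known, and the probe sets by their mean level without regard to the groups. Of the 7 genes, 6 had such a probe set, out of 18194 genes with one in the whole table, and 5 of them (Arg2, Odc1, Srm, Sat1 and Smox) were among the 12674 genes whose mean passed a filter on low signal. The only probe set annotated to Ass1 alone had a mean log2 signal of 4.29, under the filter limit of 4.544, so Ass1 was not tested. A probe set annotated to Gm5424 and Ass1 together had a mean of 11.29 and is described in the closing section. All 3 probe sets for Sms are also annotated to its pseudogene Sms-ps, so no value could be given to Sms alone. Arg2 had a mean of 5.27 over all arrays. It passed the filter through the arrays of the hnRNPKKD experiment, where it was high, so its being among the tested genes is itself tied to a difference between arrays.

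Arginine is supplied to cells by uptake and by synthesis from citrulline, and its conversion to ornithine opens the route to the polyamines. Ass1 encodes argininosuccinate synthase, which joins citrulline and aspartate on the way to arginine, and Arg2 encodes the mitochondrial arginase, which splits arginine into ornithine and urea. Odc1 encodes ornithine decarboxylase, the short-lived and tightly controlled enzyme that turns ornithine into putrescine. Srm and Sms encode the synthases that then make spermidine and spermine. Sat1 encodes the acetyltransferase that marks spermidine and spermine for breakdown or export, and Smox encodes the oxidase that turns spermine back into spermidine with release of hydrogen peroxide. Polyamines bind nucleic acids and are needed for growth. Odc1 is a well-known target of the transcription factor Myc in growing fibroblasts.

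RNA was measured on 30 arrays in mouse embryonic fibroblasts of a C57BL/6 x 129SvJ background, isolated from E13.5 embryos. All cells were homozygous for p53 LSL alleles, which give no p53 until the recombinase Cre acts. In the time course, cells received adenovirus with Cre (AdenoCRE) or with GFP (AdenoGFP) for 24 h and then 500 nM doxorubicin, a DNA-damaging drug, for 1, 3, 6 or 9 h, or no drug (0 h), with 1 array for each virus and time. In the 2 siRNA experiments, named lincP21KD and hnRNPKKD, all cells received AdenoCRE for 24 h, siRNA for 24 h and 100 nM doxorubicin for 13 h. The lincP21KD experiment had 3 arrays with siRNA against p53 (siP53), 3 with siRNA against lincRNA-p21 (siLincp21) and 2 with a scrambled control siRNA. The hnRNPKKD experiment had 3 arrays each for siP53, siLincp21, siRNA against the RNA-binding protein hnRNP-K (siHnrnpk) and control siRNA. AdenoCRE cells differ from AdenoGFP cells in Cre as well as in p53, and Cre and p53 cannot be told apart in the time course. Neither Trp53 nor lincRNA-p21 was analysed here, so the siLincp21 groups are described by their siRNA. The labels do not say whether replicates were separate cultures, and p-values measure only the spread between these arrays.

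The values are log2 signal from the RMA method, as deposited, and the precision of a difference rests on the number of arrays. Levels were compared only within an experiment, since the 3 experiments sat on different scales: the median probe set of an array read 4.976 to 5.032 in the time course, 5.546 to 5.656 in lincP21KD and 4.832 to 4.914 in hnRNPKKD. Cdkn1a, a main p53 target, differed by 3.85 ± 0.15 between AdenoCRE and AdenoGFP cells, and by -2.07 ± 0.11 in lincP21KD and -2.64 ± 0.18 in hnRNPKKD between siP53 and control siRNA. Hnrnpk fell with siHnrnpk by 3.51 ± 0.35 on the log2 scale, with signals of 8.38, 8.34 and 9.94 against 12.68, 12.03 and 12.47 in the controls, so array 3 of siHnrnpk kept the most Hnrnpk signal. Array 2 of siP53 in hnRNPKKD stood apart from its group. The SD of its differences from its group mates over all tested genes was 0.435, against 0.134 to 0.350 for the other arrays of that experiment, and its Cdkn1a signal was 11.41 against 10.52 and 10.61. All 8 fibroblast markers passed the filter, with means between 11.3 and 14.51. Of 6 macrophage markers 3 passed (Csf1r, Cd68 and Lyz2), with Ptprc, Adgre1 and Itgam below the limit, and 1 of 5 endothelial and 4 of 6 epithelial markers passed.

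Throughout, a difference is given as log2 difference ± its standard error from limma, and a gene is said to have risen or fallen only at an adjusted p below 0.05 over all 12674 tested genes.

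Between the viruses, Sat1 and Smox, which act in the breakdown and back-conversion of polyamines, were higher in AdenoCRE than in AdenoGFP cells at every time. Sat1 rose 1.76-fold and Smox 1.79-fold over the 5 pairs of arrays. Arg2, Odc1 and Srm did not pass the test. Thus 2 of the 5 tested members were called, both higher, where 19.1% of all tested genes were called and 12.9% were called higher. Over all genes the split depended on the scaling: of the called genes 67.4% were higher as deposited, and 45.2% with each array centred on its median. Marker lists moved too: 2 of 8 tested fibroblast and 2 of 4 tested epithelial markers were called lower with AdenoCRE, and 1 of 3 macrophage markers higher. Summed per array, the epithelial markers lay at log2 signals of 8.20 to 8.41 with AdenoGFP and 7.76 to 8.08 with AdenoCRE, without overlap, the macrophage markers reached 8.34 and 8.35 and overlapped, and the fibroblast markers lay at 16.76 to 16.86 and 16.68 to 16.78. Their part in the differences between the viruses was not tested.

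Sat1 had log2 signals of 11.56, 11.73, 12.09, 12.37 and 12.55 at 0, 1, 3, 6 and 9 h in AdenoCRE cells, and of 10.82, 11.03, 11.33, 11.57 and 11.46 in AdenoGFP cells. Each AdenoCRE array lay above the AdenoGFP array of the same time, and the AdenoCRE array at 0 h was just below the highest AdenoGFP array, so the ranges met. The difference was 0.74, 0.70, 0.76, 0.80 and 1.09 at the 5 times, and 0.82 ± 0.09 over all of them (adjusted p = 0.00149). It was already present before doxorubicin.

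Smox had signals of 8.01, 8.38, 8.50, 8.57 and 8.30 at 0, 1, 3, 6 and 9 h with AdenoCRE and of 7.61, 7.40, 7.55, 7.50 and 7.50 with AdenoGFP. The ranges did not overlap. The difference was 0.40 at 0 h and between 0.80 and 1.08 at the later times, and 0.84 ± 0.11 over all times (adjusted p = 0.00272). Both calls held without the arrays of any one time, the lowest values being 0.75 for Sat1 and 0.78 for Smox. The array medians over the tested genes averaged 0.107 higher with AdenoCRE, the lowest being 8.016 for AdenoGFP at 6 h, and with centred arrays the differences were 0.71 for Sat1 (adjusted p = 0.00216) and 0.73 for Smox (adjusted p = 0.00183).

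Since Sat1 and Smox moved together between the viruses, the 250 bases before the transcription start of each are shown, from the RefSeq promoters of build GRCm38.p6. The Sat1 stretch is chrX:155216450-155216699 on the minus strand and the Smox stretch is chr2:131491612-131491861 on the plus strand, each written 5′ to 3′ and ending at the base before the start.
Sat1: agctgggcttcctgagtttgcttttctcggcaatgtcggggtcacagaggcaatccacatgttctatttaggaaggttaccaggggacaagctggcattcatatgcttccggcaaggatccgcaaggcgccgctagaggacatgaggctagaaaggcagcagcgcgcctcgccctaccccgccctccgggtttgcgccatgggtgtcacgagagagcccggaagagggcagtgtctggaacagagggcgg
Smox: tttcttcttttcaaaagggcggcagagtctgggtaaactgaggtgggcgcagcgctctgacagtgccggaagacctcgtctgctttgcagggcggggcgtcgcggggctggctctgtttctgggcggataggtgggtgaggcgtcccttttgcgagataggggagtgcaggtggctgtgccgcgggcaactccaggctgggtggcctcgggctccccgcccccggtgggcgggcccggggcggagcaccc
The E-box letters CACGTG and the p53 half-site were searched on both strands in these windows, and neither was in the Sat1 or the Smox stretch, so no letters are in capitals. Of 32851 mouse promoter windows of the same length, 6.02% held the E-box and 7.13% the p53 half-site. The Odc1 window held neither. The Ass1 window held 1 E-box, from base -36 to -31 of the start. Sms had 2 windows, of which 1 held an E-box, from base -196 to -191, and the other held none. In all, 5 of the 7 genes were in the promoter table.

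Arg2 signals lay between 3.40 and 4.18 on all 10 arrays of the time course, all below the filter limit. The difference between the viruses was 0.20 ± 0.14 (adjusted p = 0.355), with a 95% interval from -0.12 to 0.51, and it was above 0 at 3 of the 5 times. The highest Arg2 signal, 4.18, was that of AdenoCRE at 9 h. The untested Ass1 probe set read 4.11, 4.12, 4.72, 4.81 and 4.62 with AdenoCRE and 4.23, 3.83, 4.15, 4.00 and 4.16 with AdenoGFP. It was higher with AdenoCRE at 4 of the 5 times, by up to 0.81.

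The synthesis genes gave no call between the viruses. Srm differed by 0.04 ± 0.12 (adjusted p = 0.863, interval -0.24 to 0.31), and by -0.07 with centred arrays. Odc1 was lower by its main probe set (log2 difference -0.34 ± 0.15, adjusted p = 0.159), with signals of 12.15, 11.87, 11.54, 12.41 and 12.15 in AdenoCRE and 12.32, 12.55, 12.45, 12.27 and 12.24 in AdenoGFP cells. The gap was widest at 1 h and 3 h, at -0.69 and -0.90, while at 6 h the AdenoCRE array was 0.14 higher. Another Odc1 probe set, 1427364_a_at, went the other way: it was higher with AdenoCRE at all 5 times, by 0.44 ± 0.10 (adjusted p = 0.0309 over 27060 probe sets). The remaining one, 1438761_a_at, differed by 0.08 ± 0.09. No direction between the viruses can therefore be given for Odc1.

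**Figure D1:**
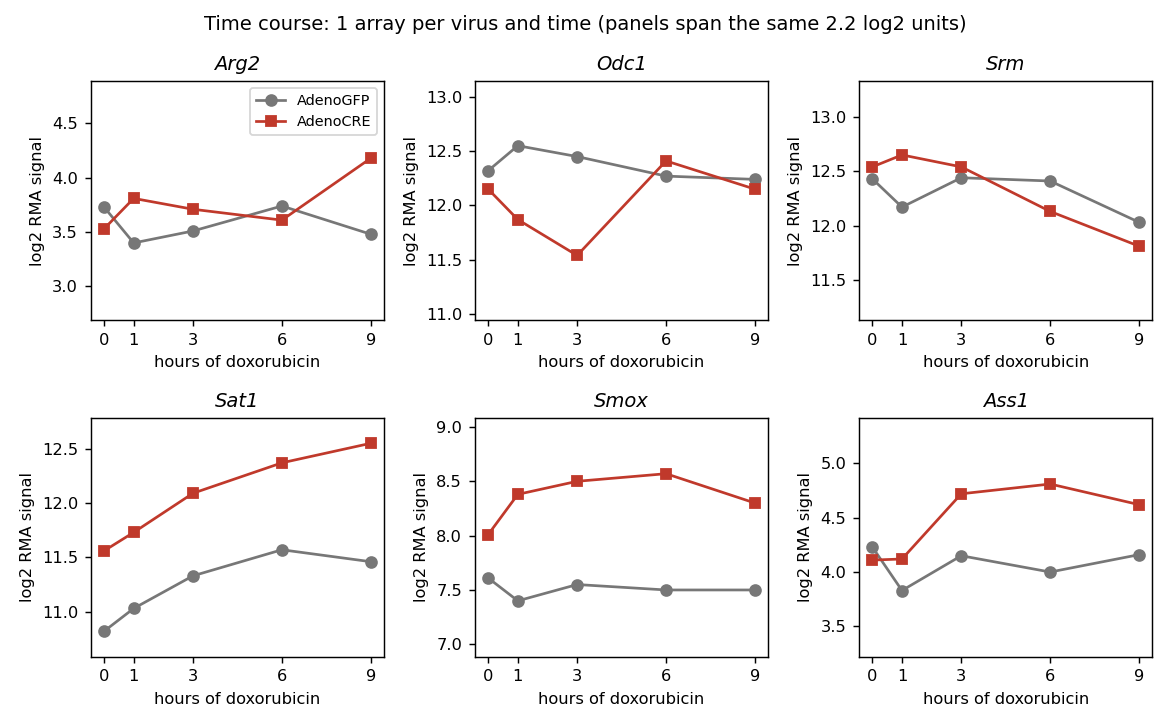
Log2 RMA signal of each member with a probe set of its own against hours of doxorubicin, 1 array per point, AdenoGFP in grey circles and AdenoCRE in red squares, with panels of equal span. Sat1 and Smox were higher with AdenoCRE at every time. Arg2 and the probe set annotated to Ass1 alone lay at low signal throughout, and the stronger probe set shared by Ass1 and Gm5424 is not shown.

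Over the 9 h of doxorubicin, Sat1 rose and Srm fell in AdenoCRE cells, while no member was called in AdenoGFP cells. The Sat1 slope was 0.11 ± 0.02 per hour with AdenoCRE (adjusted p = 0.0171) and 0.07 ± 0.02 per hour with AdenoGFP (adjusted p = 0.23). The Srm slope was -0.09 ± 0.02 per hour with AdenoCRE (adjusted p = 0.0406) and -0.03 ± 0.02 with AdenoGFP (adjusted p = 0.671). These 2 of 5 members compare with 5.4% of all tested genes called in AdenoCRE cells. In AdenoGFP cells 0.00789% of genes were called, which was 1 gene, and 1654 had an unadjusted p under 0.05.

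Srm signals with AdenoCRE were 12.54, 12.65, 12.54, 12.13 and 11.81 at 0, 1, 3, 6 and 9 h, so the first 3 times were level and the last 2 lower. With AdenoGFP they were 12.43, 12.17, 12.44, 12.41 and 12.03, and there too the array at 9 h was the lowest. The difference between the slopes was not called for any member, with 0.04 ± 0.03 per hour for Sat1 (adjusted p = 0.796) and -0.07 ± 0.03 for Srm (adjusted p = 0.614), where 0.181% of all genes were called. The rise of Sat1 and the fall of Srm are thus not shown to differ between the viruses. Neither slope call was firm. Srm lost its call without the arrays of any one of the 5 times (adjusted p from 0.0833 to 0.289), and Sat1 lost it without 0 h (0.10 per hour, adjusted p = 0.0871) or 1 h (0.11 per hour, adjusted p = 0.0952).

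In the hnRNPKKD experiment, Arg2 and Smox fell strongly with siP53, 17.71-fold and 4.39-fold, and Sat1 fell 1.76-fold. Arg2 and Sat1 also fell with siLincp21, and Arg2, Sat1 and Smox all fell with siHnrnpk. No tested member rose in any of the 3 groups. The count was 3 of 5 with siP53, 2 of 5 with siLincp21 and 3 of 5 with siHnrnpk, where 38.6%, 29% and 26.9% of all tested genes were called, and 19.2%, 11.8% and 12.8% were called lower. Arg2 is in each of these counts, and it passed the filter through the arrays of this experiment. With siLincp21, 59.2% of the called genes were higher as deposited and 48.1% with centred arrays. The 3 groups share their control arrays, so these falls are not independent of each other.

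Arg2 had signals of 8.82, 8.72 and 8.87 in the control arrays, 4.60, 5.14 and 4.24 with siP53, 7.41, 7.29 and 7.02 with siLincp21 and 7.56, 7.30 and 7.35 with siHnrnpk. All 9 knockdown arrays lay below all 3 controls, and the siP53 arrays lay far below the other knockdowns. The difference from control was -4.15 ± 0.19 with siP53 (adjusted p = 1.76e-08), -1.56 ± 0.19 with siLincp21 (adjusted p = 6.19e-05) and -1.40 ± 0.19 with siHnrnpk (adjusted p = 0.000144). Because Arg2 was among the tested genes through these same arrays, its differences and p-values here are given as a description. The siP53 signals are close to the filter limit of 4.544 and the files used here hold no detection calls, so how far above background they lie is not known. The second Arg2 probe set, 1438841_s_at, gave -3.82, -1.59 and -1.73 for the same groups.

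Sat1 had signals of 12.75, 12.71 and 12.88 in the controls, 11.76, 12.44 and 11.69 with siP53, 12.23, 12.25 and 11.95 with siLincp21 and 12.23, 12.25 and 12.30 with siHnrnpk. Every knockdown array was below every control, and array 2 of siP53 was the highest of the 9. The difference was -0.82 ± 0.17 with siP53 (adjusted p = 0.00186), -0.64 ± 0.17 with siLincp21 (adjusted p = 0.0118) and -0.52 ± 0.17 with siHnrnpk (adjusted p = 0.0338). Without array 2 of siP53 the siP53 difference was -1.05 (adjusted p = 3.92e-06). The siLincp21 call was lost without array 3 of that group (-0.54, adjusted p = 0.0549), and the siHnrnpk call was lost without any one of the 6 arrays, with values from -0.56 to -0.47 (adjusted p from 0.0583 to 0.11).

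Smox had signals of 9.78, 9.47 and 9.65 in the controls, 7.27, 7.50 and 7.72 with siP53, 9.27, 9.36 and 9.39 with siLincp21 and 9.15, 9.12 and 9.17 with siHnrnpk. Here too all knockdown arrays were below all controls, and the siP53 arrays stood well apart. The difference was -2.14 ± 0.12 with siP53 (adjusted p = 8.52e-08) and -0.49 ± 0.12 with siHnrnpk (adjusted p = 0.00794). With siLincp21 it was -0.29 ± 0.12 and was not called (adjusted p = 0.0802, interval -0.55 to -0.04). It was called with centred arrays (-0.351, adjusted p = 0.0332) and with the mean of its probe sets (-0.265, adjusted p = 0.0247). That mean takes in probe set 1446509_at, whose mean signal of 3.78 was under the filter limit. The lack of a call with siLincp21 thus depended on the processing.

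Srm, the spermidine synthase, showed no call, with signals between 11.22 and 11.66 over all 12 arrays and differences of 0.06, 0.13 and 0.02 with siP53, siLincp21 and siHnrnpk, each ± 0.11. The intervals reached from -0.21 to 0.36 over the 3 groups. The siLincp21 arrays, at 11.46, 11.56 and 11.46, lay just above the controls, at 11.35, 11.42 and 11.32. The untested Ass1 probe set lay between 3.56 and 4.19.

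**Figure D2:**
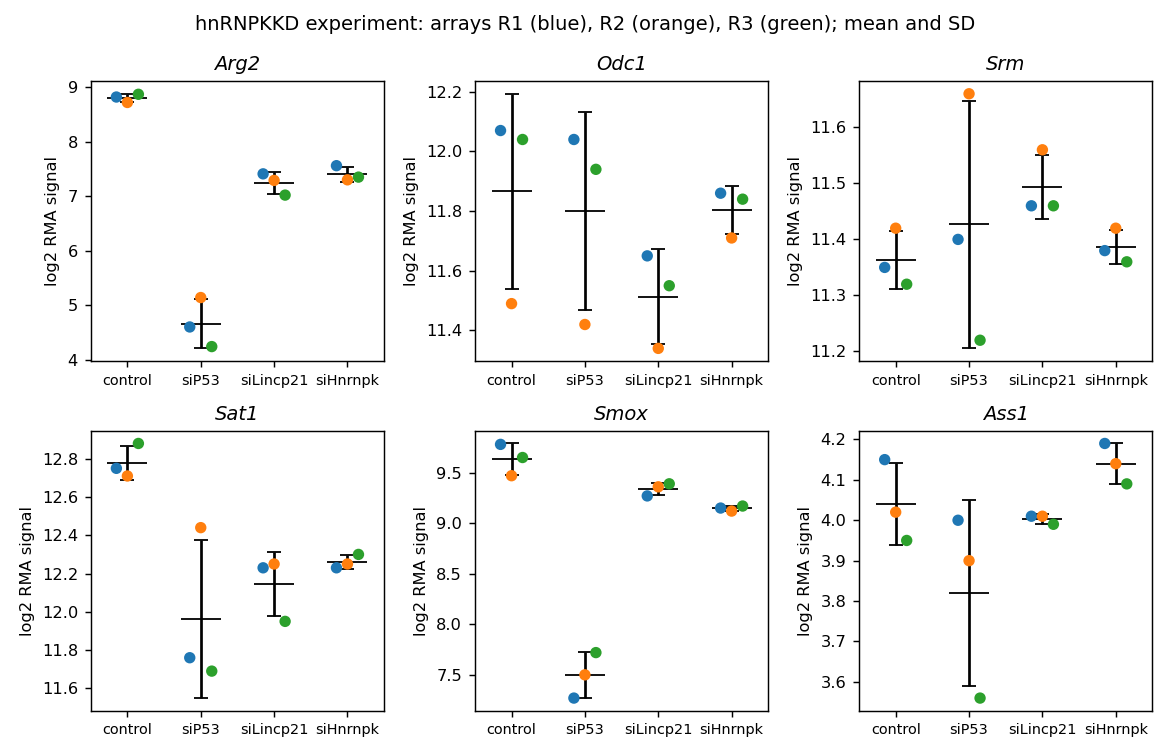
Log2 RMA signal of each member by group in the hnRNPKKD experiment; points are arrays coloured by replicate number, the long line is the mean and the bar the SD (n = 3), and each panel has its own axis. Arg2 and Smox separated siP53 from all other groups. For Odc1 each knockdown group overlapped with the controls, and for Srm the siLincp21 arrays lay just above the controls.

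Within hnRNPKKD the knockdowns were also set against each other. Arg2 was lower with siP53 than with siLincp21 (-2.58 ± 0.19, adjusted p = 3.57e-07) and 2.75 ± 0.19 higher with siHnrnpk than with siP53 (adjusted p = 1.61e-07). Smox was likewise lower with siP53 than with siLincp21 (-1.84 ± 0.12, adjusted p = 1.33e-07) and 1.65 ± 0.12 higher with siHnrnpk than with siP53 (adjusted p = 2.57e-07). These were 2 of 5 members in each comparison, where 38.8% and 45.3% of all genes were called. Odc1 is counted here by its main probe set, and its other 2 probe sets are described further on. Arg2 is 1 of the 2 each time, and its values are again a description. Between siHnrnpk and siLincp21 none of the 5 was called, where 27.6% of genes were, and none of the 5 had an unadjusted p under 0.05. The intervals of that difference were -0.24 to 0.56 for Arg2, -0.25 to 0.47 for Sat1 and -0.45 to 0.06 for Smox. For Odc1 the interval was -0.09 to 0.68 by the main probe set. Its other 2 probe sets were called higher with siHnrnpk than with siLincp21. For Sat1, siP53 was not called against siLincp21 (-0.18 ± 0.17, adjusted p = 0.435), nor was siHnrnpk against siP53 (0.29 ± 0.17, adjusted p = 0.172). Without array 2 of siP53 both were called, at -0.42 (adjusted p = 0.00473) and 0.53 (adjusted p = 0.000767).

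Other markers moved in the same groups. Of the 8 fibroblast markers, 6 rose with siP53, 5 with siLincp21 and 1 with siHnrnpk in hnRNPKKD. Over all 12674 tested genes 2450, 2179 and 1783 rose, in the same order. The macrophage markers, summed over all 6 per array, lay at log2 signals of 7.12 to 7.80 with siP53, 8.34 to 8.71 with siLincp21, 8.38 to 8.61 with siHnrnpk and 8.57 to 8.92 in the controls, so they too were lowest with siP53. The summed epithelial markers lay at 8.59 to 8.66 in the controls and at 7.50 to 7.72 in the 3 knockdowns. The summed endothelial markers went the other way with siP53 (6.81 to 6.87) and siHnrnpk (6.97 to 7.09), against 6.53 to 6.79 in the controls. With siLincp21 they lay at 6.47 to 6.66. Such sums weigh the strongest markers most. Taken singly, 1 of 3 tested macrophage markers fell with siP53, 0 with siLincp21 and 1 with siHnrnpk. Of 4 tested epithelial markers, 1 fell in each group. The 1 tested endothelial marker rose with siP53 and was not called with siLincp21 or siHnrnpk. The part of these cell types in the differences of Arg2, Sat1 and Smox was not tested, and in bulk RNA fewer cells of a type and less RNA per cell cannot be told apart.

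In the lincP21KD experiment Arg2, at the arginine end of the pathway, and Sat1, at the breakdown end, were lower with siP53. Arg2 fell 1.67-fold and Sat1 fell 1.35-fold with siP53, and no member was called with siLincp21. That is 2 of 5 where 12.7% of all genes were called (5.74% lower), and 0 of 5 where 11.9% were called. Arg2 is 1 of the 2. It was among the tested genes only through the arrays of hnRNPKKD, so its values here are a description. With siLincp21, 63% of the called genes were higher as deposited and 45.7% with centred arrays. With siLincp21, 1 of the 5 members, Arg2, had an unadjusted p under 0.05. Both siRNA groups share the 2 control arrays.

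Sat1 had signals of 12.35 and 12.33 in the controls, 11.90, 11.84 and 11.98 with siP53 and 12.20, 12.16 and 12.32 with siLincp21. The siP53 arrays were below all others, and the siLincp21 arrays lay just below the controls. The difference was -0.43 ± 0.08 with siP53 (adjusted p = 0.00744) and -0.11 ± 0.08 with siLincp21 (adjusted p = 0.452, interval -0.29 to 0.07). Sat1 was lower with siP53 than with siLincp21 by a direct test (-0.32 ± 0.07, adjusted p = 0.0127). The siP53 call against control was lost without either control array, with the value at -0.42 (adjusted p = 0.0721) or -0.44 (adjusted p = 0.0567).

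Arg2 had signals of 5.52 and 4.71 in the controls, 4.31, 4.30 and 4.52 with siP53 and 4.48, 4.60 and 4.60 with siLincp21. The controls were above the knockdowns, but they were 0.81 apart and only 1 of them was far from the knockdown arrays, most of which lay near the filter limit of 4.544. The difference was -0.74 ± 0.19 with siP53 (adjusted p = 0.0293) and -0.56 ± 0.19 with siLincp21 (adjusted p = 0.0873). Without control array 1 the siP53 difference was -0.33 (adjusted p = 0.181), and the call was also lost without siP53 array 1 or 2 (-0.70 in each case, adjusted p = 0.0793 and 0.0844). Without control array 2 the siLincp21 difference was -0.96 and was called (adjusted p = 0.00734). The second Arg2 probe set gave -0.38 with siP53 (adjusted p = 0.0697 over the probe sets).

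Smox had signals of 7.90 and 7.85 in the controls, 7.70, 7.51 and 7.56 with siP53 and 7.95, 7.88 and 8.06 with siLincp21. The siP53 arrays were below the controls, but the difference was not called against them (-0.28 ± 0.09, adjusted p = 0.0637, interval -0.48 to -0.09). It was called against siLincp21 (-0.37 ± 0.08, adjusted p = 0.00856). In this comparison of siP53 with siLincp21, 2 of 5 members were called, where 20.4% of all genes were. With siLincp21 alone Smox differed from control by 0.09 ± 0.09 (interval -0.11 to 0.29). Srm signals lay between 11.51 and 11.93 over the 8 arrays, and its differences were -0.15 ± 0.11 with siP53 and 0.03 ± 0.11 with siLincp21, the latter turning to -0.025 with centred arrays. The summed macrophage markers lay at 7.88 to 7.99 with siP53, 8.43 to 8.55 with siLincp21 and 8.59 to 8.62 in the controls. In the same order, the epithelial markers lay at 8.89 to 8.93, 8.51 to 8.67 and 8.74 to 8.83, so they were highest with siP53. The fibroblast markers lay at 16.68 to 16.77, 16.75 to 16.82 and 16.57 to 16.64. The endothelial markers, at 7.07 to 7.17, 7.02 to 7.15 and 7.06 to 7.22, overlapped. The part of these lists in the differences was not tested.

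**Figure D3:**
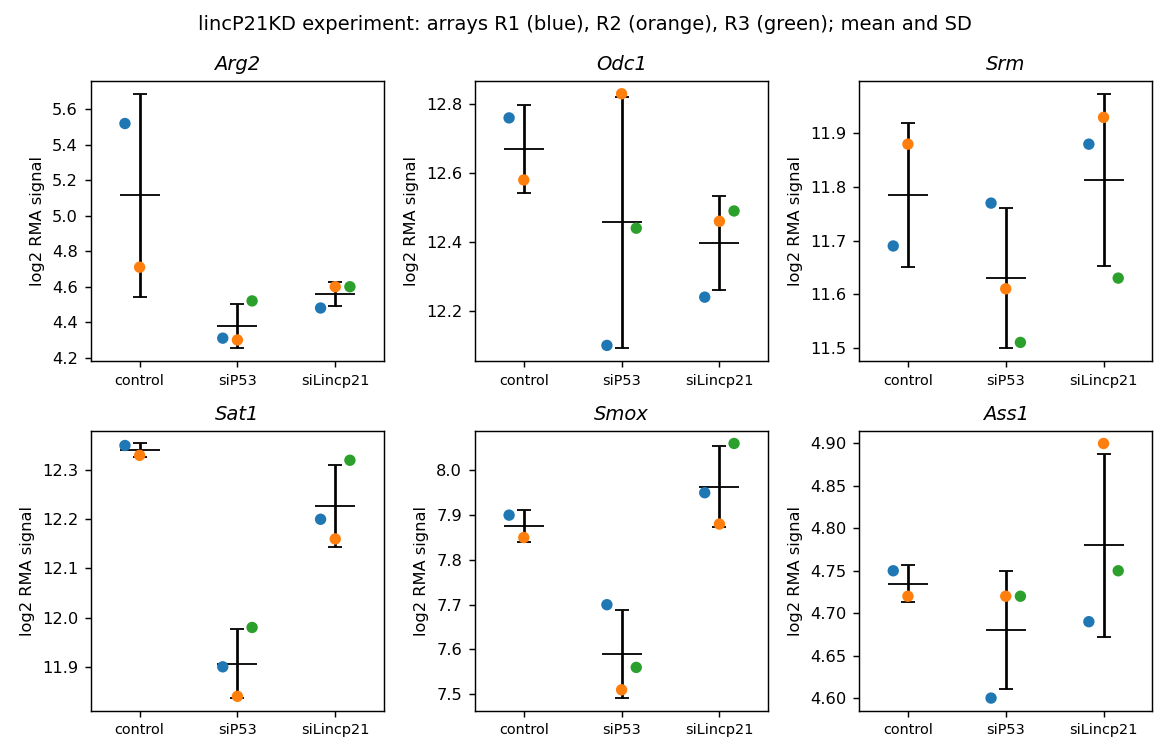
Log2 RMA signal of each member by group in the lincP21KD experiment; points are arrays coloured by replicate number, the long line is the mean and the bar the SD (n = 2 controls, 3 for each siRNA), and each panel has its own axis. Sat1 and Smox were lowest with siP53, and the 2 Arg2 controls were 0.81 apart.

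The siP53 effect on Smox was smaller in lincP21KD than in hnRNPKKD by 1.85 ± 0.16 (adjusted p = 7.52e-07). In lincP21KD the Smox controls read 7.90 and 7.85 and the siP53 arrays 7.51 to 7.70. In hnRNPKKD the controls read 9.47 to 9.78 and the siP53 arrays 7.27 to 7.72. As the scales of the experiments differ, whether this gap lies in the controls or in the siP53 arrays was not tested. For Arg2 the gap between the siP53 effects was 3.41, and it is given as a description, since the Arg2 controls in lincP21KD read only 5.52 and 4.71, near the filter limit of 4.544, against 8.72 to 8.87 in hnRNPKKD. A fall of the hnRNPKKD size could not have been read there, and Arg2 passed the filter through the hnRNPKKD arrays. For Sat1 the siP53 effects differed by 0.39 ± 0.21 and were not called different (adjusted p = 0.24). Over all genes 14.5% were called. For siLincp21 the Arg2 gap was 1.01, under the same limit, no other member was called, and 8.14% of all genes were. The Arg2 call for siLincp21 was lost in 9 of the 11 fits that left out 1 array. In the siP53 comparison, leaving out array 2 of siP53 in hnRNPKKD brought Sat1 past the threshold (0.63, adjusted p = 0.00161). Both experiments have the same stated treatments, and their arrays differ, so experiment and array set cannot be told apart. No label used here says whether they were normalized together.

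**Figure D4:**
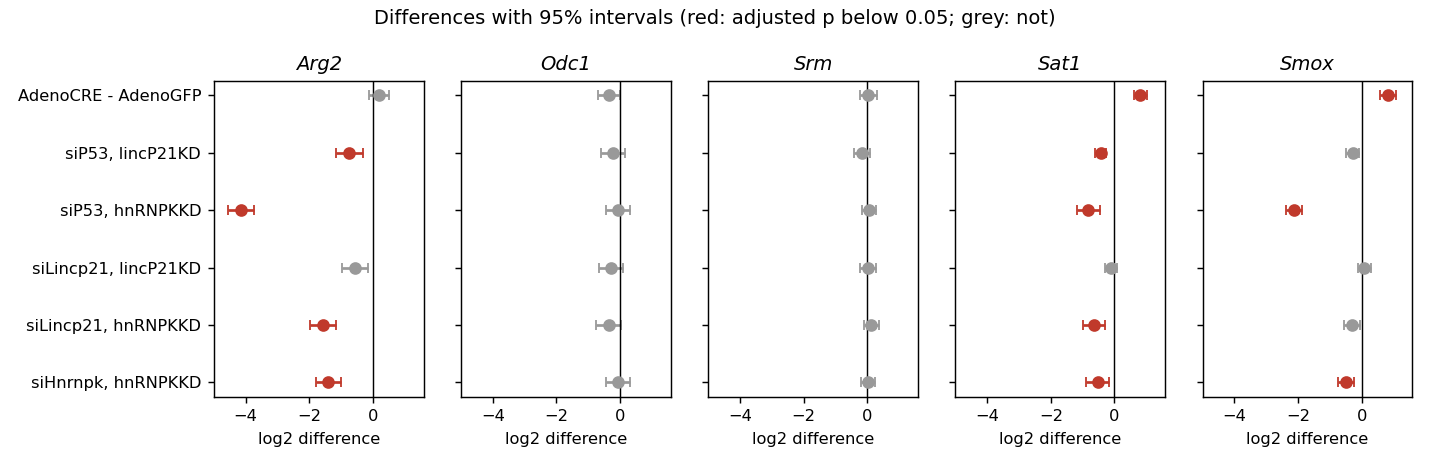
Log2 difference of the 5 tested members (columns) in 6 comparisons (rows), with 95% intervals from limma; red marks an adjusted p below 0.05. Arg2 and Smox were lowest with siP53 in hnRNPKKD, Sat1 was to the right of 0 for the viruses and to the left for siP53, and Odc1 and Srm gave no red point.

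For Odc1, the 3 probe sets did not give the same picture in the siRNA experiments. The main probe set, 1437711_x_at, which has the highest mean, was not called in any siRNA group. The other 2, 1438761_a_at and 1427364_a_at, both fell with siP53 and with siLincp21 in each experiment and were not called with siHnrnpk. This was seen when the other probe sets were looked at as a check, and their p-values are adjusted over 27060 probe sets.

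By 1438761_a_at the hnRNPKKD signals of Odc1 were 12.10, 11.85 and 11.93 in the controls, 11.32, 11.27 and 11.15 with siP53, 11.16, 11.08 and 11.10 with siLincp21 and 11.89, 11.79 and 11.77 with siHnrnpk. The siP53 and siLincp21 arrays lay well below the controls without overlap, and 1 siHnrnpk array lay within the range of the controls. The difference was -0.71 ± 0.09 with siP53 (adjusted p = 0.000125), -0.85 ± 0.09 with siLincp21 (adjusted p = 6.68e-05) and -0.15 ± 0.09 with siHnrnpk (adjusted p = 0.343). Probe set 1427364_a_at gave -0.70, -0.76 and 0.15 for the same groups. Between siHnrnpk and siLincp21 Odc1 was 0.70 ± 0.09 higher with siHnrnpk by 1438761_a_at (adjusted p = 0.00022) and 0.91 ± 0.10 by 1427364_a_at (adjusted p = 5.61e-05). Between siHnrnpk and siP53 it was higher with siHnrnpk by 0.57 ± 0.09 (adjusted p = 0.000424) and 0.86 ± 0.10 (adjusted p = 2.64e-05), in the same order. By the main probe set that difference was 0.003 ± 0.18 (adjusted p = 0.992 over the tested genes).

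In lincP21KD, Odc1 by 1438761_a_at read 12.18 and 12.18 in the controls, 11.85, 11.78 and 11.87 with siP53 and 11.75, 11.89 and 11.84 with siLincp21. All 6 knockdown arrays were below both controls. The difference was -0.35 ± 0.08 with siP53 (adjusted p = 0.0245) and -0.35 ± 0.08 with siLincp21 (adjusted p = 0.0235). Probe set 1427364_a_at gave -0.44 (adjusted p = 0.029) and -0.40 (adjusted p = 0.0451).

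By the main probe set, the hnRNPKKD signals of Odc1 were 12.07, 11.49 and 12.04 in the controls, 12.04, 11.42 and 11.94 with siP53, 11.65, 11.34 and 11.55 with siLincp21 and 11.86, 11.71 and 11.84 with siHnrnpk. Array 2 was the lowest of each of the 4 groups, which widened every group. Each knockdown group overlapped with the controls, while the siLincp21 arrays lay below the siHnrnpk arrays. The differences were -0.06, -0.35 and -0.06, each ± 0.18, with siP53, siLincp21 and siHnrnpk. In lincP21KD they were -0.22 ± 0.18 with siP53 and -0.28 ± 0.18 with siLincp21, whose arrays all lay below both controls. Myc, a known activator of Odc1, rose with siP53 in hnRNPKKD (0.42 ± 0.13, adjusted p = 0.0174) and was not called there with siLincp21 or siHnrnpk (0.08 and 0.12). In lincP21KD Myc was not called with siP53 (0.18 ± 0.10, adjusted p = 0.308) or siLincp21 (0.07 ± 0.10, adjusted p = 0.725). Nor was it called between the viruses (-0.24, adjusted p = 0.116).

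**Figure D5:**
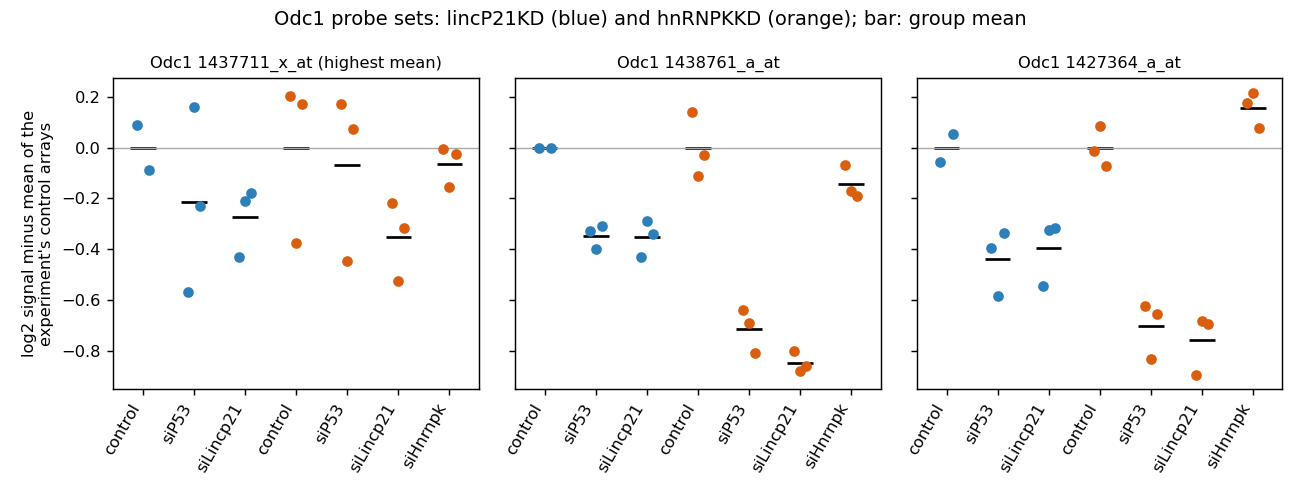
Log2 signal of the 3 Odc1 probe sets minus the mean of the control arrays of the same experiment, points being arrays (lincP21KD in blue, hnRNPKKD in orange) and bars group means. Probe sets 1438761_a_at and 1427364_a_at lay below 0 with siP53 and siLincp21 in both experiments. The arrays of 1437711_x_at overlapped with the controls, except for siLincp21 in lincP21KD, where they lay below both controls.

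The other genes of arginine and polyamine metabolism were taken from a list of 37, of which 33 had a probe set of their own and 24 were tested. Between the viruses 4 of the 24 rose and 1 fell in AdenoCRE cells, where 19.1% of all genes were called, so 5 of 24 is near the share over all genes. The median log2 difference was -0.09 against 0.04 over all genes. Azin2, which encodes an antizyme inhibitor that can keep ornithine decarboxylase from its inhibitor, rose by 0.95 ± 0.17. Gatm, the first enzyme of creatine synthesis from arginine, rose by 0.43 ± 0.11, and Asl, which follows Ass1 in arginine synthesis, by 0.41 ± 0.10. The arginine transporter gene Slc7a2 fell by 0.68 ± 0.15 (log2 difference -0.68). With centred arrays 1 of the 24 rose and 3 fell: Azin2 and Slc7a2 stayed called, and Asl and Gatm did not. In the slopes of AdenoCRE cells 1 of 24 rose (Atp13a2, a lysosomal polyamine exporter, 0.11 ± 0.02 per hour) and 1 fell (Ddah2, -0.15 ± 0.03 per hour), where 5.4% of all genes were called, and none was called in AdenoGFP cells.

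With siP53, Slc7a2, Oat and Gamt rose and Asl and Atp13a2 fell in both experiments. The share of all genes called the same way in both experiments was not worked out, so these names are only a description. In hnRNPKKD 5 of the 24 rose and 4 fell, near the 38.6% of all genes that were called, with a median of 0.11 against -0.01 over all genes. In lincP21KD 4 rose and 3 fell, where 12.7% of all genes were called, with a median of 0.02 against 0.02. Slc7a2 rose by 1.08 ± 0.18 in hnRNPKKD and by 0.72 ± 0.12 in lincP21KD. Asl changed by -0.88 ± 0.17 and -0.26 ± 0.07, and Atp13a2 by -0.98 ± 0.12 and -0.40 ± 0.10, in the same order, and with centred arrays Asl lost its call in lincP21KD. Azin2 fell in hnRNPKKD (-0.89 ± 0.10), and the mitochondrial ornithine carrier gene Slc25a15 rose there by 1.19 ± 0.14.

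With siLincp21, 8 of the 24 rose and 4 fell in hnRNPKKD, where 29% of all genes were called (median 0.05 against 0.01 over all genes). In lincP21KD 5 rose and 3 fell, where 11.9% of all genes were called (median 0.05 against 0.01). Of these, 4 rose in both experiments (Slc7a1, Slc7a2, Slc3a2 and Oat, the last named here after its values were seen) and 3 fell in both (Azin1, Atp13a3 and Oaz2). Here too the share of all genes called the same way in both experiments was not worked out, so these counts are only a description. The antizyme inhibitor gene Azin1 fell by 0.82 ± 0.12 (log2 difference -0.82) in hnRNPKKD and by 0.28 ± 0.08 (-0.28) in lincP21KD. The transporter gene Atp13a3 differed by -0.50 ± 0.16 and -0.41 ± 0.11. Slc25a15 rose by 1.47 ± 0.14 and Gatm by 1.04 ± 0.12 in hnRNPKKD, and Slc7a2 rose by 0.91 ± 0.18 in hnRNPKKD and 0.65 ± 0.12 in lincP21KD. With siHnrnpk, 3 of the 24 rose and 5 fell, where 26.9% of all genes were called (median -0.03 against 0 over all genes). Gatm rose by 1.98 ± 0.12, which was 3.95-fold, and Azin2 by 1.46 ± 0.10. Dhps and Eif5a2, an enzyme that uses spermidine to modify eIF5A and another gene for eIF5A, fell by 0.97 ± 0.12 (-0.97) and 0.98 ± 0.14 (-0.98). Eif5a2 was 2.02 ± 0.14 lower with siHnrnpk than with siLincp21 (log2 difference -2.02, adjusted p = 1.69e-06), and Azin2 1.28 ± 0.10 higher (adjusted p = 4.2e-06).

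The genes whose signals followed each member most closely over the 30 arrays, after each gene was centred within its experiment, were found by Pearson correlation and are given as a description, since arrays of a group share their treatment. Arg2 was followed by Mgst2 (r = 0.97), Ociad2 (0.91) and Cdkn2b (0.91). Smox was followed by Ppard (0.95), Zbtb42 (0.95) and Tgfa (0.93), and Sat1 by Atp6ap1 (0.88), Atp6v1e1 (0.88) and Polr2g (0.87). The main Odc1 probe set was followed by Psmc4 (0.88), Tspyl1 (0.87) and Fbxo22 (0.86). Srm had the loosest followers, Gmppb (0.80), Gorasp2 (0.75) and Sec24b (0.74).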

How the data were processed

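Values were the deposited table of 45101 probe sets on 30 arrays, log2 signal made by the authors with RMA, per the submitters' processing notes (version not given in the sources used here). Probe sets with 1 gene symbol (34958) were used, 1 per gene, by the highest mean over all arrays, and those in the lowest 40% of all probe sets by mean were dropped. The tests used limma 3.58.1 (R 4.3.3, plain eBayes), separately for each experiment, with Benjamini-Hochberg adjustment over 12674 genes and a threshold of 0.05. The virus effect had time as a block, slopes were on hours, and siRNA groups of an experiment shared 1 fit. Differences between experiments came from a joint fit. Probe sets of one member were also fitted among 27060 probe sets. The fits were tested on simulated data. Replicate numbers were checked for pairing by the correlation of same-numbered deviations. These were over 0.1 in all 3 pairs against control only for siHnrnpk (0.216, 0.166 and 0.209), a hint from the data and not from the labels. Alternatives were other probe set rules, filters, scalings, variance models, a replicate block and single arrays left out. Figures were drawn with matplotlib 3.10.9. The members and lists were chosen with earlier results of these data known. Named genes were the members, up to 3 called genes of the pathway list with the largest rise and 3 with the largest fall in each comparison, check genes and the 3 closest followers of each member. An experiment with RAS named in the study text is not analysed here.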

Additional observations from a re-analysis of the deposited data

Results flagged for a closer look

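Signals that differed between the 2 siRNA experiments, by a test of the difference of the log2 differences (lincP21KD minus hnRNPKKD), were as follows. For siP53, the difference was 3.41 for Arg2, 1.851 for Smox, -1.062 for Slc25a15, 0.547 for Azin2, 0.42 for Oaz2 and 0.577 for Atp13a2. For siLincp21, it was 1.006 for Arg2, -1.202 for Slc25a15, -0.995 for Gatm, 0.54 for Azin1 and -0.711 for Eif5a2. For Arg2 both values are bounded by its low control signal in lincP21KD.

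Probe sets annotated to a member and to another gene were outside the comparisons, and 2 of them carried signal that differed from the control samples, with p-values adjusted over 27060 probe sets. Probe set 1416239_at, annotated to Gm5424 and Ass1 together, was 1.562 higher with AdenoCRE than with AdenoGFP (adjusted p = 0.000577), with gaps of 1.17, 1.47, 1.48, 1.83 and 1.85 at 0, 1, 3, 6 and 9 h. With siP53 it was lower, by -0.818 in lincP21KD and -1.156 in hnRNPKKD. With siLincp21 it was higher, by 0.44 and 0.92, and with siHnrnpk by 1.076. In hnRNPKKD its signals were 11.40, 11.46 and 11.51 in the controls, 10.12, 10.88 and 9.89 with siP53, 12.41, 12.53 and 12.18 with siLincp21 and 12.47, 12.61 and 12.52 with siHnrnpk, and siP53 and the other siRNAs lay on opposite sides of the controls. Which of the 2 genes gave this signal was not tested. Probe set 1434190_at, annotated to Sms-ps and Sms, was lower with siLincp21 by -0.401 in lincP21KD and -0.442 in hnRNPKKD, while 1421052_a_at, with the same annotation, differed by -0.09 and -0.17 and was not called.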

How the results depend on the processing

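Apart from arrays left out, a part of the member results was recomputed under each planned setting. This gave 373 pairs of a result and a setting, so each result is counted several times. Of these pairs 356 kept their direction and their side of the threshold, 4 reversed, 3 lost and 10 gained a call. The reversals were all uncalled differences. With the mean of a gene's probe sets, Odc1 between the viruses read 0.061 and Smox with siLincp21 in lincP21KD read -0.026. With arrays centred on their medians, Srm read -0.071 between the viruses and -0.025 with siLincp21 in lincP21KD. With other probe sets, chosen after seeing the data, Odc1 between the viruses read 0.443 and 0.081, Odc1 with siHnrnpk 0.154, and Arg2 between siHnrnpk and siLincp21 -0.135. Of 210 pairs of a count and a setting, 188 stayed within 1.5 times. Members called with the mean of probe sets were 4 with siP53 and 1 with siLincp21 in lincP21KD, 4 with siLincp21 in hnRNPKKD and 1 between siHnrnpk and siLincp21. A 60% filter leaves out Arg2, so members called became 1 with siLincp21 in hnRNPKKD, 1 between siP53 and siLincp21, 1 between siHnrnpk and siP53, 1 for the siP53 difference between experiments and 0 for that of siLincp21. In the AdenoCRE slope, 1 member was called with centred arrays and 1 on log2(hours + 1). Genes called were 1304 between the viruses without the time block and 439 for the AdenoCRE slope on log2(hours + 1). For the AdenoGFP slope they were 2 with centred arrays, 2 with quantile scaling and 0 on log2(hours + 1), against 1. For the slope difference they were 9 with the 60% filter, 43 with centred arrays, 36 with quantile scaling, 41 with trend and robust variances and 5 on log2(hours + 1), against 23. The cause was not tested beyond the filter.

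With the replicate number as a block, no member was called for the siLincp21 difference between experiments, 0 against 1 (Arg2 0.96, adjusted p = 0.0517), and Odc1 with siLincp21 in hnRNPKKD was called (-0.351, adjusted p = 0.0271), as was Odc1 between siP53 and siLincp21 there (0.289, adjusted p = 0.0499), which made 3 members called against 2. The block changed no other member call, and genes called with siHnrnpk went from 3408 to 3824.

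Leaving out 1 array, or both arrays of 1 time, gave these ranges. Genes called were 1146 to 2055 between the viruses (1146 without 3 h), 0 to 0 for the AdenoGFP slope, 204 to 424 for the AdenoCRE slope (204 without 1 h) and 0 to 19 for the slope difference. In lincP21KD they were 620 to 1313 with siP53 and 286 to 1377 with siLincp21, both lowest without the first control array, and 1627 to 2345 between siP53 and siLincp21. They were 936 to 4351 for the siP53 difference between experiments, the highest without the second hnRNPKKD siP53 array, and 388 to 898 for that of siLincp21. Members called were 0 to 1 for the AdenoCRE slope, 0 to 2 with siP53 and 0 to 1 with siLincp21 in lincP21KD, 1 to 3 with siLincp21 in hnRNPKKD, 2 to 4 between siP53 and siLincp21 there, and 0 to 1 for the siLincp21 difference. Srm crossed 0 between the viruses (-0.076 to 0.115), in the AdenoGFP slope (-0.041 to 0.015), with siLincp21 in lincP21KD (-0.062 to 0.122) and with siP53 in hnRNPKKD (-0.055 to 0.168). In hnRNPKKD so did Odc1 with siP53 (-0.251 to 0.126) and siHnrnpk (-0.248 to 0.043). The causes were not tested.

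The number of arrays limits precision, above all the 2 control arrays of lincP21KD and the single array per virus and time. The deposited values carry no detection calls, so a low signal such as that of Arg2 after siP53 has no tested lower limit.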
